A study of Mus musculus with 12 samples.

Results

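The liver carboxylesterases described here are 10 genes of 1 family, Ces1c, Ces1d, Ces1e, Ces1f, Ces1g, Ces2a, Ces2c, Ces2e, Ces3a and Ces3b, chosen by their symbols from the 37991 genes of the deposited table. They were followed in cultured primary mouse hepatocytes across 4 groups that differ in genotype label and treatment. All cells came from male mice, 10 weeks old, in which both REV-ERB genes (Nr1d1 and Nr1d2) were floxed, that is, flanked by sites that the recombinase Cre can cut. KO-labelled mice had been injected 2 weeks before with an AAV8 virus carrying Cre and GFP under the hepatocyte promoter TBG, and control mice with the same kind of virus carrying GFP without Cre. The plated hepatocytes were kept for 8 h in 10 µM SR9009, a compound used as a REV-ERB agonist, or in its solvent DMSO. The groups were KO-labelled SR9009, KO-labelled DMSO, control SR9009 and control DMSO, with 3 libraries each. Cells carrying Cre without floxed genes are not among the libraries, so an effect of Cre itself and an effect of the deletion cannot be told apart. The labels do not say whether the libraries of a group came from separate mice or from plates of 1 preparation, so the p-values speak of the spread among these libraries alone, and that spread may be technical.

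Carboxylesterases are serine hydrolases of the endoplasmic reticulum that cut esters, amides and thioesters. In liver they activate or inactivate many ester drugs, pesticides and other foreign compounds, and several of them also act on the cell's own triglycerides and cholesteryl esters. The mouse has many more carboxylesterase genes than humans, lying side by side on chromosome 8 as copies of one another. Nuclear receptors that sense foreign compounds, bile acids and fatty acids, and the oxidative stress factor NRF2, are known to act on several of these genes. REV-ERB proteins are repressors of the circadian clock that also hold down genes of liver metabolism, Arntl (BMAL1) being the best known target.

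Levels are given as FPKM, a count of sequenced fragments scaled to the length of the gene's transcript and to the size of the library, so they can be set side by side between genes. The 12 libraries summed to 538521 to 604449 FPKM, and 10611 to 10932 genes had at least 1 FPKM. Taking control DMSO library 1 as 100%, the relative depth was 55.5% in control SR9009 library 1, 63.4% in KO-labelled DMSO library 1 and 77.0% to 92.3% in the others. Nr1d1 averaged 17.7 ± 0.459 FPKM in KO-labelled DMSO and 18.5 ± 0.412 FPKM in control DMSO cells (SD, n = 3 each), with an adjusted p of 0.492 by limma. Nr1d2 averaged 16.2 ± 0.0949 and 15.3 ± 1.87 FPKM in the same groups, with an adjusted p of 0.633. The transcript levels of the targeted genes therefore do not check the label, and "KO-labelled" is used throughout. Arntl averaged 6.49 ± 0.307 FPKM in KO-labelled DMSO and 0.214 ± 0.0796 FPKM in control DMSO cells (adjusted p = 1.04e-08).

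The summed level of 10 hepatocyte markers was 39128 to 40239 FPKM in KO-labelled SR9009, 41165 to 44122 FPKM in KO-labelled DMSO, 38402 to 42428 FPKM in control SR9009 and 42190 to 43556 FPKM in control DMSO libraries. All 10 hepatocyte markers were tested, and 4 were higher and 2 lower in KO-labelled DMSO than in control DMSO cells. Under SR9009 4 were higher and 4 lower in KO-labelled cells. Of all genes tested 20% passed an adjusted p under 0.05 (limma) between the genotypes in DMSO, and 20.4% under SR9009. SR9009 against DMSO called 4 of the 10 hepatocyte markers lower in KO-labelled cells and 4 lower in control cells, and 0 higher in either. Of all genes tested 4.56% were lower and 5.32% higher in KO-labelled cells, and 4.55% and 3.69% in control cells. The summed level of 10 Kupffer cell markers was 34.7 to 46.1 FPKM in KO-labelled DMSO and 47.8 to 59.7 FPKM in control DMSO libraries. Of these 10 markers 8 were tested between the genotypes in DMSO, and 4 were lower and 1 higher in KO-labelled cells. The shares over all genes tested were 8.32% lower and 11.7% higher. The macrophage receptor Marco fell to 1.66 FPKM in KO-labelled DMSO cells, against 9.52 FPKM in control DMSO cells (adjusted p = 1.21e-05). The summed level of 6 endothelial markers was 8.60 to 12.8 FPKM in KO-labelled DMSO and 5.43 to 6.17 FPKM in control DMSO libraries. The summed level of 7 stellate cell markers was 1.94 to 2.82 FPKM in KO-labelled DMSO and 1.71 to 2.12 FPKM in control DMSO libraries. Most of it was Reln, at 2.17 FPKM in KO-labelled DMSO and 1.63 FPKM in control DMSO cells on average (adjusted p = 0.228), while Lrat, Des and Pdgfrb were under 0.1 FPKM in every library. The summed level of 6 cholangiocyte markers was 29.1 to 38.8 FPKM in KO-labelled DMSO and 42.1 to 44.7 FPKM in control DMSO libraries. Both tested genes of that list differed. Sox9 averaged 9.09 ± 1.37 FPKM in KO-labelled DMSO and 2.67 ± 0.532 FPKM in control DMSO cells (log2 change 1.46, adjusted p = 1.57e-05), and Spp1 averaged 24.4 ± 3.09 and 39.9 ± 0.863 FPKM in the same groups (log2 change -0.70, adjusted p = 0.00505). Krt19 was highest in KO-labelled DMSO library 1, at 1.02 FPKM, and Krt7 and Cftr were under 0.1 FPKM in every library. The part of these other cells in the genotype differences reported here was not tested.

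In the deposited coordinates (mouse build mm9) the family occupies 2 stretches of chromosome 8. The Ces1 genes lie at chr8:95544113-95903624 on the minus strand, and after a gap of 11198295 bases from the last Ces5a model the Ces2, Ces3 and Ces4a genes follow at chr8:107257903-107674009 on the plus strand. No member's gene model overlaps another gene model of the table. The members are close copies. In the longest open reading frames of reference transcripts (GENCODE, build GRCm38), Ces3a and Ces3b were identical at 95.3% of bases. Over the whole transcripts they shared an unbroken run of 194 bases, and the shared runs that follow are also of whole transcripts. The 10 pairs within Ces1 were identical at 73.9% to 81.6% of bases, with shared runs of at most 95 bases, and the 3 pairs within Ces2 at 82.9% to 84.0%, with shared runs of at most 73 bases. The 31 pairs between subfamilies were identical at 58.4% to 61.7%, with shared runs of at most 30 bases. How reads that fit more than 1 copy were assigned is not stated, so the split of reads within a subfamily, between Ces3a and Ces3b above all, is uncertain.

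RefSeq promoters (GRCm38.p6, 250 bases before to 50 bases after the start) were matched for 7 of the 10 members, and Ces1d, Ces1f and Ces3a had no entry. The promoters of Ces1c, Ces1e and Ces1g are shown because these genes stand together in what follows. They read from the minus strand of chr8:93131234-93131533, chr8:93229570-93229869 and chr8:93337160-93337459, and capitals mark the runs of at least 7 bases that all 3 hold.
Ces1c: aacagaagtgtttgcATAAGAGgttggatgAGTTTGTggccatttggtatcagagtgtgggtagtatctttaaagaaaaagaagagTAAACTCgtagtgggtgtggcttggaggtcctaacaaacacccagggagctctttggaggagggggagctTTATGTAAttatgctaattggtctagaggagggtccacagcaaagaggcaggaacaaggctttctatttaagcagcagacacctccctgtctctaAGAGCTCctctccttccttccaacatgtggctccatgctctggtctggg
Ces1e: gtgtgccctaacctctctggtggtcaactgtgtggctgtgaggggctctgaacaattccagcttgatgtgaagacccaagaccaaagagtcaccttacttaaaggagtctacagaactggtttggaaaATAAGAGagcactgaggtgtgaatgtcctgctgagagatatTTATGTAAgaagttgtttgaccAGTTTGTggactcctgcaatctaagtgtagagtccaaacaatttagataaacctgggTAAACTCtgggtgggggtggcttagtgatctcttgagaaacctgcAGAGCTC
Ces1g: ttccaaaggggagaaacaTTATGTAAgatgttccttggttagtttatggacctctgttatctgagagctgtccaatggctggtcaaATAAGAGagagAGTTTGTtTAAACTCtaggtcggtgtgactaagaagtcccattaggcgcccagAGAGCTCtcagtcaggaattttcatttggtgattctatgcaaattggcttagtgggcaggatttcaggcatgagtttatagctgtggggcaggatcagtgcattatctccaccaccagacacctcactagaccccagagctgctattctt
The longest of the shared runs is TTATGTAA. Its letters are of the D-box kind, the element bound by the clock factors DBP, TEF and HLF and by the repressor NFIL3. It begins 94 bases before the start in Ces1c, 81 in Ces1e and 232 in Ces1g (first bases at -94, -81 and -232). Searched on both strands, it lies in 5 of the 6 Ces1 genes of the promoter table, in 0 of its 9 other carboxylesterase genes and in 0.938% of all 32851 promoters of 300 bases. The run was picked out by comparing the promoters of Ces1c, Ces1e and Ces1g, so 3 of the 5 were set by that choice. Gene copies can also share sequence by descent, which was not tested. The match is a description, and whether it is a bound site was not tested.

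The promoters of Ces2a, Ces2c and Ces2e are shown for the same reason, read from the plus strand of chr8:104733753-104734052, chr8:104846818-104847117 and chr8:104926010-104926309, with runs of at least 7 bases shared by these 3 in capitals.
Ces2a: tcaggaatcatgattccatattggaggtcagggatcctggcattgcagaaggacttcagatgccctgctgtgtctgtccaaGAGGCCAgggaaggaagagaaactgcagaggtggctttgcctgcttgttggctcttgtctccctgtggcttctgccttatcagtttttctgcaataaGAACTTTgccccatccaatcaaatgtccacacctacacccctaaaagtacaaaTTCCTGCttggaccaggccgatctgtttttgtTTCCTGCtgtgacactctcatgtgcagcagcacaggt
Ces2c: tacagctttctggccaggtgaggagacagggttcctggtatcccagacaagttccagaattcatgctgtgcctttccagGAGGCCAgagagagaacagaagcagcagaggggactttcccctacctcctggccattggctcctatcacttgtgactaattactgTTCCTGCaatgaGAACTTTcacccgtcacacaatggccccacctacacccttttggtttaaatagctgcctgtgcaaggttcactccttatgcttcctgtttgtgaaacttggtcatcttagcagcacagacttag
Ces2e: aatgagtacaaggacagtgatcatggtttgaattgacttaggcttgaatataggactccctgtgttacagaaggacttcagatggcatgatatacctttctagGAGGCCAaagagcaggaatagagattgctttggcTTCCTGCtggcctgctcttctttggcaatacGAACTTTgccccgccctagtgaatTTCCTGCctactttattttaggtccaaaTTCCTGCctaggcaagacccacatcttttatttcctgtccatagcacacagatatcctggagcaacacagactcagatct
Of the 300 bases, 60.0% to 67.0% were identical between pairs of these Ces2 promoters, and 47.7% to 56.7% between pairs of the Ces1 promoters, against 45.3% to 53.3% between the 15 pairs from different subfamilies. Both strands of the 7 promoters were searched for the nuclear receptor half-site AGGTCA (in 16.3% of all promoters), its extended form ANTAGGTCA to which REV-ERB proteins bind (0.661%), the NRF2 core TGACNNNGC (12.4%) and the HNF4A motif CAAAGTCCA (0.475%). The 1 match was AGGTCA in Ces2a, with its first base at -226. The other letters are not in these windows.

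The same members led the family in all 4 groups. Ces1c, the form that mouse liver secretes into plasma, had rank 1 in each group, at 835 ± 24.0 FPKM in KO-labelled SR9009, 771 ± 29.5 FPKM in KO-labelled DMSO, 878 ± 16.2 FPKM in control SR9009 and 887 ± 16.6 FPKM in control DMSO cells (SD, n = 3 each). Ces3a had rank 2 in each group, with means of 577 to 623 FPKM, and Ces2a rank 3, with means of 181 to 335 FPKM. The ranges over libraries of these 3 genes did not overlap with those of their neighbours in the order in any group.

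Below them the order depended on the genotype label. Ces1d, a triglyceride hydrolase that supplies lipid for very low density lipoprotein (VLDL), had rank 4 in both control groups, at 152 ± 9.89 FPKM in control SR9009 and 127 ± 6.09 FPKM in control DMSO cells. In KO-labelled cells it had rank 7 under SR9009, where its range overlapped that of Ces1f, and rank 8 in DMSO, where it overlapped that of Ces1g. Ces2c had rank 6 in both KO-labelled groups, rank 9 in control SR9009 and rank 10 in control DMSO cells, and in the control groups its range overlapped that of Ces1e. Ces2e and Ces3b were not separated by their ranges in either control group, and Ces3b stood above Ces2e in both KO-labelled groups.

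**Figure D1:**
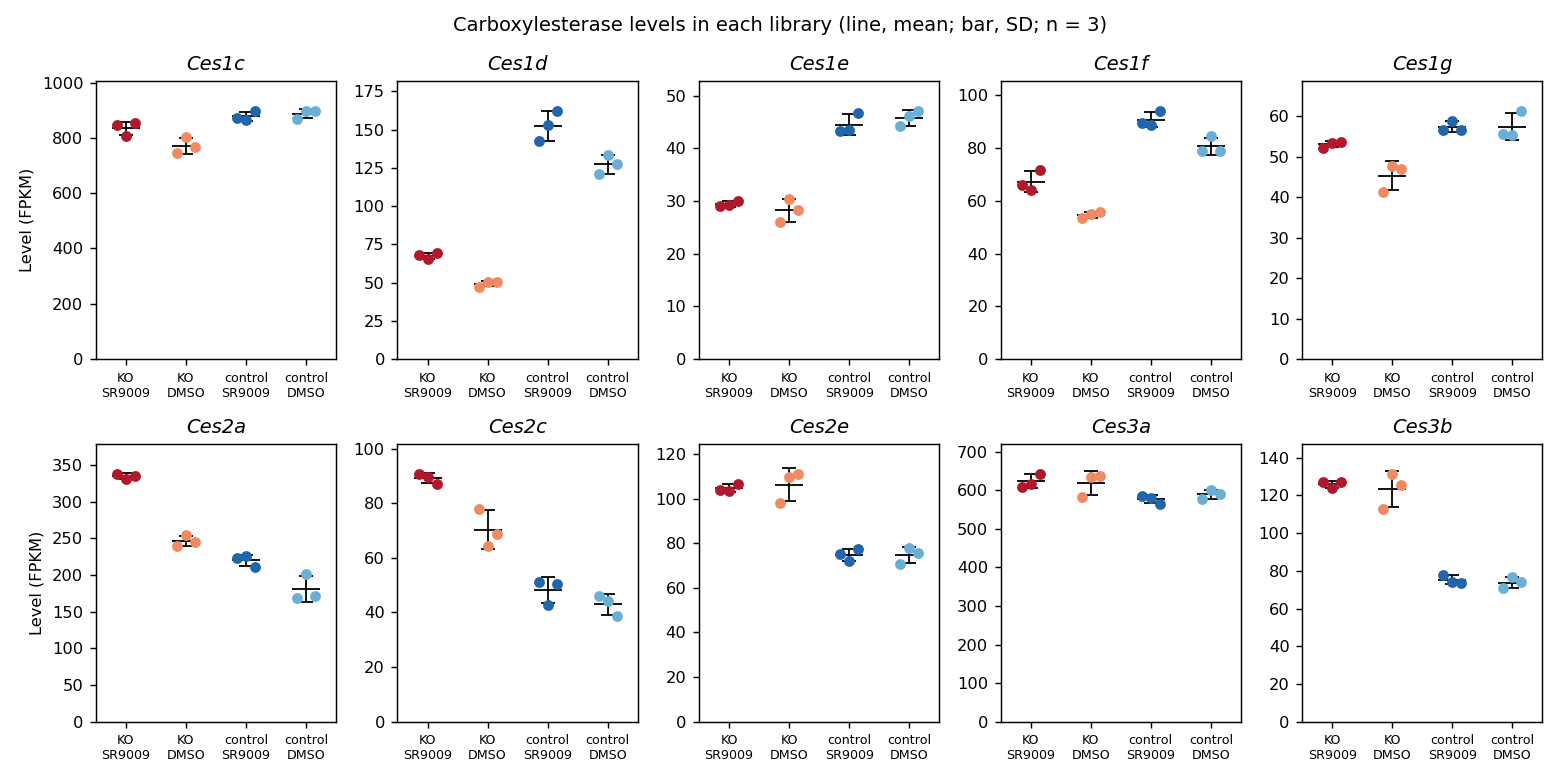
FPKM (vertical axis, linear, from 0) of the 10 carboxylesterases in each library of the 4 groups, 1 panel per gene; points are libraries, the long line is the mean and the bar the SD (n = 3). Ces1d, Ces1e and Ces1f sit lower in both KO-labelled groups than in both control groups, Ces2c, Ces2e and Ces3b sit higher, and Ces3a differs little, with group means of 577 to 623 FPKM.

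The first comparison asks how the family differs between the genotype labels without the compound. In DMSO the 5 Ces1 members were lower in KO-labelled than in control cells, the 3 Ces2 members and Ces3b were higher, and Ces3a did not pass the test. Ces1d changed most, to 0.387 times its control level, and Ces3b and Ces2c were 1.67-fold and 1.64-fold higher. A gene was called at an adjusted p under 0.05 in limma, with Benjamini-Hochberg adjustment over the 11213 genes tested. Called were 9 of the 10 members, where 20% of all genes tested were called in either direction, 11.7% as higher and 8.32% as lower. In 9 members the 3 KO-labelled and the 3 control libraries did not overlap, which held for 41.2% of all genes tested. The median log2 change over the members was -0.07, and over all genes tested 0.04. In bulk RNA, fewer cells that express a gene and less RNA per cell cannot be told apart.

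Ces1d (ENSMUSG00000056973, chr8:95689967-95721737) stood at 47.4, 50.1 and 50.1 FPKM in the KO-labelled DMSO libraries, against 121, 133 and 128 FPKM in the control DMSO libraries. The groups were far apart, with every KO-labelled library below every control library. The log2 change was -1.35 (SE 0.06, 95% interval -1.48 to -1.22, adjusted p = 1.28e-08). Ces1e (ENSMUSG00000061959, chr8:95725117-95753518), known as egasyn, which holds β-glucuronidase in the endoplasmic reticulum, stood at 26.1, 30.5 and 28.2 FPKM in KO-labelled DMSO libraries, against 44.2, 46.1 and 47.2 FPKM in control DMSO libraries. The groups did not overlap, and the log2 change was -0.68 (SE 0.06, adjusted p = 9.71e-06). Ces1f (ENSMUSG00000031725, chr8:95780135-95803646), another hydrolase of neutral lipids, stood at 53.4, 55.1 and 55.7 FPKM in KO-labelled DMSO libraries, against 78.8, 84.4 and 78.9 FPKM in control DMSO libraries. It too separated the groups, with a log2 change of -0.55 (SE 0.06, adjusted p = 1.96e-05).

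The other Ces1 members differed less. Ces1g (ENSMUSG00000057074, chr8:95826268-95861207), whose loss in mice is known to raise liver and plasma lipids, stood at 41.2, 47.8 and 47.0 FPKM in KO-labelled DMSO libraries, against 55.7, 55.3 and 61.3 FPKM in control DMSO libraries. The lowest value was that of the shallow KO-labelled library 1, which was the lowest KO-labelled DMSO library for every member except Ces2c. The groups did not overlap (log2 change -0.34, SE 0.06, adjusted p = 0.00288). Ces1c (ENSMUSG00000057400, chr8:95622914-95655182) stood at 744, 802 and 766 FPKM in KO-labelled DMSO libraries, against 868, 898 and 895 FPKM in control DMSO libraries. All KO-labelled libraries were lower, and the mean fell by 13.1%, with a log2 change of -0.20 (SE 0.05, adjusted p = 0.00793). That call was lost after quantile normalization of the libraries, where the log2 change was -0.11 (adjusted p = 0.142).

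The Ces2 members, relatives of the human CES2 that cuts esters with small acyl groups in many drugs, ran the other way. Ces2c (ENSMUSG00000061825, chr8:107370968-107378383), an acylcarnitine and diglyceride hydrolase, stood at 78.1, 64.2 and 68.8 FPKM in KO-labelled DMSO libraries, against 45.9, 44.1 and 38.8 FPKM in control DMSO libraries. The groups did not overlap, and the spread was wide within both (log2 change 0.70, SE 0.09, adjusted p = 0.000146). Ces2e (ENSMUSG00000031886, chr8:107450160-107458572), a hydrolase of pyrethroid insecticides, stood at 98.0, 109.7 and 111 FPKM in KO-labelled DMSO libraries, against 70.5, 77.9 and 75.6 FPKM in control DMSO libraries. All KO-labelled libraries were higher (log2 change 0.50, SE 0.06, adjusted p = 9.57e-05). Ces2a (ENSMUSG00000055730, chr8:107257903-107265530), the most abundant Ces2 member here, stood at 240.2, 254 and 244 FPKM in KO-labelled DMSO libraries, against 169, 201 and 172 FPKM in control DMSO libraries. Again the groups did not overlap (log2 change 0.45, SE 0.06, adjusted p = 0.000367).

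The Ces3 pair, the most alike in sequence, split. Ces3b (ENSMUSG00000062181, chr8:107607653-107617829) stood at 113, 132 and 125 FPKM in KO-labelled DMSO libraries, against 70.8, 76.6 and 74.0 FPKM in control DMSO libraries. The groups did not overlap, and the log2 change was 0.73 (SE 0.06, adjusted p = 3.48e-06). Ces3a (ENSMUSG00000069922, chr8:107572499-107582314) stood at 584, 636 and 637 FPKM in KO-labelled DMSO libraries, against 579, 601 and 590 FPKM in control DMSO libraries. The groups overlapped, and the log2 change of 0.07 had a 95% interval of -0.04 to 0.17 (adjusted p = 0.366).

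**Figure D2:**
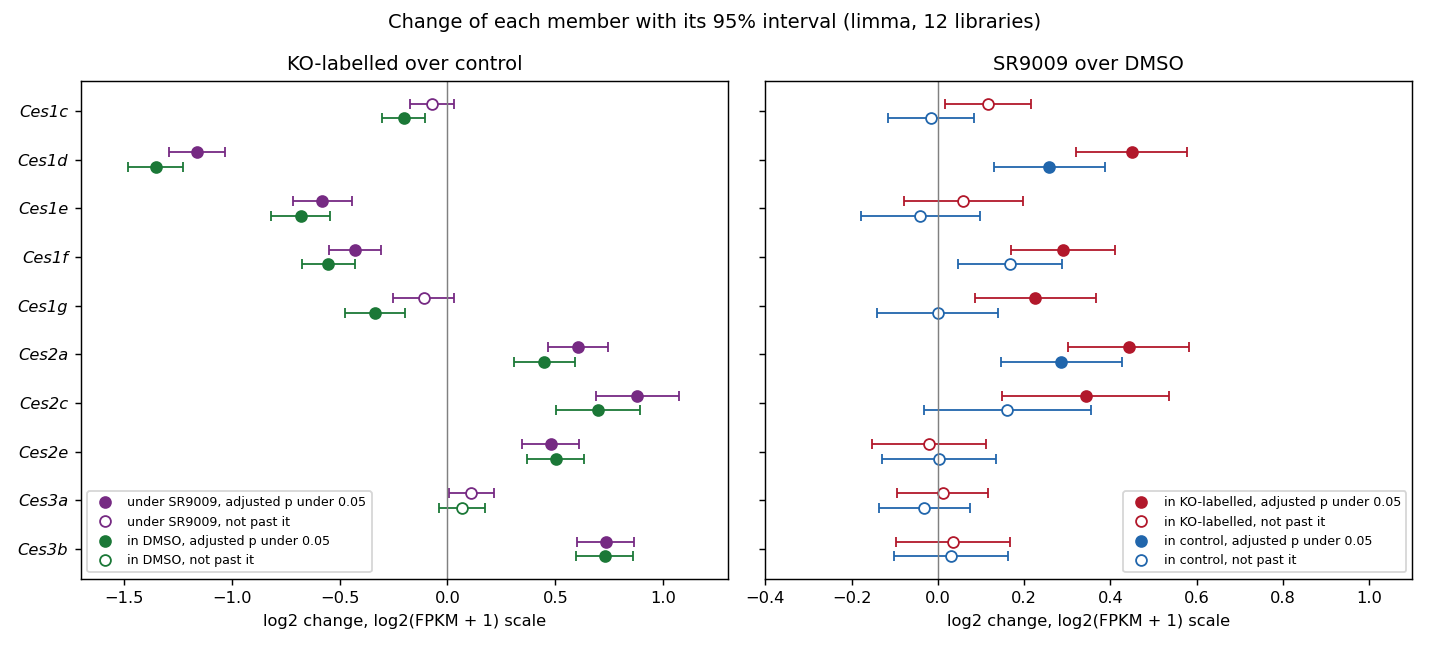
Log2 change on the log2(FPKM + 1) scale of each member with its 95% interval, left KO-labelled over control (purple under SR9009, green in DMSO), right SR9009 over DMSO (red in KO-labelled, blue in control cells); filled points have an adjusted p under 0.05. On the left the Ces1 members lie below 0 (Ces1c under SR9009 lies above it after quantile normalization, at 0.08) and the Ces2 and Ces3 members above it, from -1.35 (Ces1d) to 0.88 (Ces2c); on the right no filled point lies below 0.

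Under SR9009 7 members were called in the same direction as in DMSO. The sign was the same in both treatments for all 10 members, but for 9 after quantile normalization, where the log2 change of Ces1c under SR9009 was 0.08 (adjusted p = 0.308). These comparisons have no library in common, though 1 fit gave both. Ces1d, Ces1e and Ces1f were lower, Ces2a, Ces2c, Ces2e and Ces3b were higher, and Ces1c, Ces1g and Ces3a did not pass the test. Of all genes tested 20.4% were called under SR9009, 12.9% as higher and 7.43% as lower. All 10 members had libraries that did not overlap between the genotypes, against 34.9% of all genes. The median log2 change was 0.02 over the members and 0.06 over all genes tested.

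The values under SR9009 kept Ces1d as the member with the widest gap, at 68.0, 65.5 and 69.0 FPKM in KO-labelled libraries, against 142, 153 and 162 FPKM in control libraries. The log2 change was -1.16 (SE 0.06, adjusted p = 5.38e-08). Ces2c stood at 90.9, 89.6 and 87.2 FPKM in KO-labelled SR9009 libraries, against 51.2, 42.8 and 50.5 FPKM in control SR9009 libraries. KO-labelled cells thus held 1.85 times the control level, the largest rise among the members in this comparison (log2 change 0.88, SE 0.09, adjusted p = 1.85e-05). Ces2a stood at 338, 331 and 335 FPKM in KO-labelled SR9009 libraries, against 223, 225 and 211 FPKM in control SR9009 libraries. Every KO-labelled library was above every control library (log2 change 0.60, SE 0.06, adjusted p = 2.99e-05). Ces3b gave a log2 change of 0.73 (adjusted p = 3.06e-06), Ces1e of -0.58 (adjusted p = 3.45e-05), Ces2e of 0.48 (adjusted p = 0.000129) and Ces1f of -0.43 (adjusted p = 0.000153).

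The members that did not pass under SR9009 had narrow gaps. Ces1c averaged 835 ± 24.0 FPKM in KO-labelled SR9009 and 878 ± 16.2 FPKM in control SR9009 cells (SD, n = 3 each; log2 change -0.07, 95% interval -0.17 to 0.03, adjusted p = 0.308). Ces1g averaged 53.1 ± 0.755 FPKM in KO-labelled SR9009 and 57.4 ± 1.35 FPKM in control SR9009 cells (log2 change -0.11, 95% interval -0.25 to 0.03, adjusted p = 0.263). Ces3a averaged 623 ± 18.2 FPKM in KO-labelled SR9009 and 577 ± 10.6 FPKM in control SR9009 cells (log2 change 0.11, adjusted p = 0.133). With each library rescaled to the same total, Ces3a passed in this comparison, at a log2 change of 0.18 (adjusted p = 0.0307), with a median over all genes tested of 0.11.

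The 10 other carboxylesterase symbols of the table are not members, and only Ces1b, Ces2b, Ces2d-ps and Ces2g reached 1 FPKM in at least 3 libraries. Ces1b averaged 12.4 ± 0.902 FPKM in KO-labelled DMSO and 16.7 ± 0.370 FPKM in control DMSO cells (log2 change -0.40, adjusted p = 0.00406). Ces2g averaged 13.2 ± 0.927 FPKM in KO-labelled DMSO and 9.83 ± 0.419 FPKM in control DMSO cells (log2 change 0.39, adjusted p = 0.00502). Ces2d-ps, annotated as a pseudogene, averaged 1.43 ± 0.151 and 0.794 ± 0.0623 FPKM in the same groups (log2 change 0.44, adjusted p = 0.018), and the log2 change of Ces2b was 0.13 (adjusted p = 0.503). Of the coding bases of the shorter gene, 90.9% were identical between Ces1b and Ces1c, and 92.1% between Ces2b and Ces2c. Reads of these pairs may therefore be split. Under SR9009 the log2 change between genotypes was 0.64 for Ces2g (adjusted p = 0.000136), 0.50 for Ces2d-ps (adjusted p = 0.00763), 0.26 for Ces2b (adjusted p = 0.164) and -0.14 for Ces1b (adjusted p = 0.272). Ces1a, Ces1h, Ces2f, Ces2h, Ces4a and the Ces5a models were under 1 FPKM in every library.

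**Figure D3:**
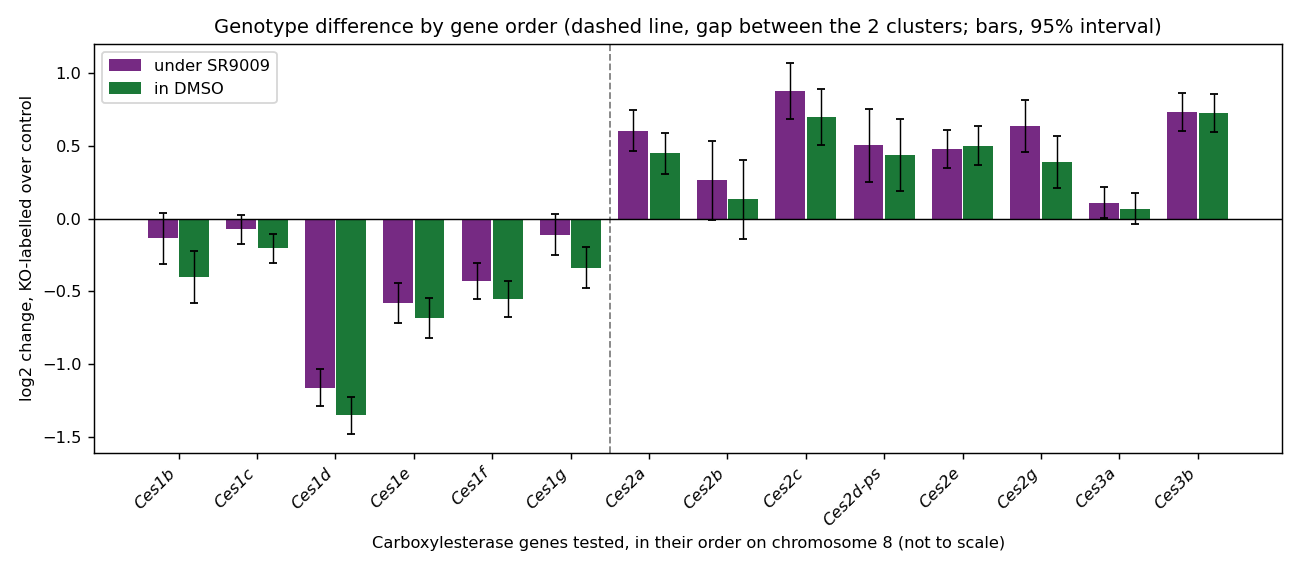
Log2 change of the 14 carboxylesterase genes tested, KO-labelled over control (purple under SR9009, green in DMSO, bars 95% intervals), in their order along chromosome 8, not to scale; the dashed line marks the gap between the 2 stretches. Every gene of the Ces1 stretch is below 0, from -0.07 to -1.35 (Ces1c under SR9009 is at 0.08 after quantile normalization), and every gene of the Ces2 and Ces3 stretch is above 0; the intervals of Ces2b in both treatments, Ces3a in DMSO, and Ces1b, Ces1c and Ces1g under SR9009 include 0.

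The next comparison asks what the compound does to the family in control cells. Ces1d and Ces2a were called higher and none lower, that is 2 of 10, where 8.24% of all genes tested were called, 3.69% as higher and 4.55% as lower. Libraries did not overlap for Ces1d, Ces1f and Ces2a, 3 of 10 members, against 25% of all genes tested. The median log2 change was 0.02 over the members and -0.02 over all genes. This comparison shares its control DMSO libraries with the genotype comparison in DMSO.

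Ces1d stood at 142, 153 and 162 FPKM in control SR9009 libraries, against 121, 133 and 128 FPKM in control DMSO libraries. All SR9009 libraries were higher, by 19.9% on average (log2 change 0.26, SE 0.06, adjusted p = 0.0192). Without control DMSO library 1 or library 3 the adjusted p was 0.0849 or 0.0602, and in a fit to these 6 libraries alone it was 0.111. Ces2a stood at 223, 225 and 211 FPKM in control SR9009 libraries, against 169, 201 and 172 FPKM in control DMSO libraries. The groups did not overlap, and the mean was 21.7% higher under SR9009 (log2 change 0.29, SE 0.06, adjusted p = 0.0178). The call was lost without control DMSO library 1 or 3 (adjusted p = 0.0788 and 0.0781), without control SR9009 library 1 or 2 (0.0544 and 0.0541), without both shallowest libraries (0.0729) and in the fit to these libraries alone (0.116).

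Ces1f stood at 89.5, 88.7 and 94.1 FPKM in control SR9009 libraries, against 78.8, 84.4 and 78.9 FPKM in control DMSO libraries. Its groups did not overlap, but it missed the threshold (log2 change 0.17, 95% interval 0.05 to 0.29, adjusted p = 0.0916). Ces2c had a log2 change of 0.16 with overlapping groups (adjusted p = 0.330). The other 6 members, Ces1c, Ces1e, Ces1g, Ces2e, Ces3a and Ces3b, had log2 changes between -0.04 and 0.03, with adjusted p-values of 0.773 to 0.998.

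In KO-labelled cells SR9009 was tested against DMSO in the same way. Ces1d, Ces1f, Ces1g, Ces2a and Ces2c were called higher and none lower, 5 of 10, where 9.87% of all genes tested were called, 5.32% as higher and 4.56% as lower. Libraries did not overlap for 6 of the 10 members, these 5 and Ces1c, against 32.3% of all genes tested. The median log2 change was 0.17 over the members and 0.00 over all genes tested. This comparison shares its KO-labelled DMSO libraries with the genotype comparison in DMSO.

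Ces2a stood at 338, 331 and 335 FPKM in KO-labelled SR9009 libraries, against 240.2, 254 and 244 FPKM in KO-labelled DMSO libraries. The 3 SR9009 libraries lay close together and far above the DMSO libraries, with a mean 1.36 times as high (log2 change 0.44, SE 0.06, adjusted p = 0.00111). Ces1d stood at 68.0, 65.5 and 69.0 FPKM in KO-labelled SR9009 libraries, against 47.4, 50.1 and 50.1 FPKM in KO-labelled DMSO libraries. It was 1.37 times as high under SR9009 (log2 change 0.45, SE 0.06, adjusted p = 0.000575), and still below every control library of either treatment. Ces1f stood at 66.0, 64.0 and 71.6 FPKM in KO-labelled SR9009 libraries, against 53.4, 55.1 and 55.7 FPKM in KO-labelled DMSO libraries. The groups did not overlap (log2 change 0.29, SE 0.06, adjusted p = 0.00609).

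The remaining calls in KO-labelled cells were close to the threshold. Ces2c stood at 90.9, 89.6 and 87.2 FPKM in KO-labelled SR9009 libraries, against 78.1, 64.2 and 68.8 FPKM in KO-labelled DMSO libraries, the log2 change being 0.34 (SE 0.09, adjusted p = 0.0301). Its call was lost with no filter on low values (adjusted p = 0.0779) and without any 1 of 5 of the 6 libraries, KO-labelled DMSO library 1 being the exception, with adjusted p-values of 0.062 to 0.123. Ces1g stood at 52.2, 53.3 and 53.7 FPKM in KO-labelled SR9009 libraries, against 41.2, 47.8 and 47.0 FPKM in KO-labelled DMSO libraries. All SR9009 libraries were higher (log2 change 0.23, SE 0.06, adjusted p = 0.0460), and its call was lost without any 1 of the 6 libraries, with adjusted p-values of 0.0506 to 0.158, and also with no filter (0.0919), after quantile normalization (0.0748), with equal totals (0.0772), without both shallowest libraries (0.160) and in a fit to these libraries alone (0.0666). Ces1c averaged 835 ± 24.0 FPKM in KO-labelled SR9009 and 771 ± 29.5 FPKM in KO-labelled DMSO cells, without overlap (SD, n = 3 each; log2 change 0.12, adjusted p = 0.149). Ces1e, Ces2e, Ces3a and Ces3b had log2 changes from -0.02 to 0.06, with adjusted p-values of 0.632 to 0.927.

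Whether the response to SR9009 differed between the genotypes was tested as an interaction. No member passed it, and 3 genes, or 0.0268% of all genes tested, did (0.0178% with a larger and 0.00892% with a smaller SR9009 change in KO-labelled cells). The SR9009 log2 change was larger in KO-labelled than in control cells for 9 of the 10 members, with a median difference of 0.13 over the members and 0.02 over all genes tested. Of the 9, Ces3b had a difference of 0.00, which was -0.01 after quantile normalization. The shift was not particular to the members. The change was also larger in KO-labelled cells for 14 of 15 other ester and epoxide hydrolases (median difference 0.12). It was so for all 4 other carboxylesterases tested (0.19), but for only 5 of 14 regulators of these genes (-0.05). The share over all genes tested was not counted. At an unadjusted p under 0.05 stood 787 genes, among them Ces1g, with a difference of 0.23 (95% interval 0.03 to 0.42, unadjusted p = 0.0287, adjusted p = 0.663), and Ces1d, with 0.19 (95% interval 0.01 to 0.37, unadjusted p = 0.0415, adjusted p = 0.71). For Ces2a the difference was 0.16 (95% interval -0.04 to 0.35, adjusted p = 0.787) and for Ces2c 0.18 (95% interval -0.09 to 0.46, adjusted p = 0.83). A call in KO-labelled and none in control cells, as for Ces1f, Ces1g and Ces2c, is therefore not shown to be a difference between the genotypes.

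Summed, the 10 members differed between the genotypes in their makeup more than in their total, whereas SR9009 in KO-labelled cells gave a mean total 10.3% higher with a similar Ces1 share. The total was 2330 ± 45.8 FPKM in KO-labelled SR9009, 2113 ± 80.1 FPKM in KO-labelled DMSO, 2218 ± 15.3 FPKM in control SR9009 and 2160 ± 57.6 FPKM in control DMSO cells (SD, n = 3 each), which is 0.369% to 0.437% of all FPKM in a library. The Ces1 share of the total was 45.2% ± 0.467 in KO-labelled SR9009 and 44.9% ± 0.433 in KO-labelled DMSO cells, against 55.1% ± 0.973 in control SR9009 and 55.5% ± 0.582 in control DMSO cells. The Ces2 share was 22.7% ± 0.368 in KO-labelled SR9009 and 20.0% ± 0.480 in KO-labelled DMSO cells, against 15.5% ± 0.291 in control SR9009 and 13.8% ± 0.699 in control DMSO cells. The Ces3 share was 32.2% ± 0.486 in KO-labelled SR9009 and 35.1% ± 0.667 in KO-labelled DMSO cells, against 29.4% ± 0.704 in control SR9009 and 30.7% ± 0.178 in control DMSO cells. Ces1c makes up most of the Ces1 sum. Without it the Ces1 sum was 177.5 ± 8.24 FPKM in KO-labelled DMSO and 311 ± 10.2 FPKM in control DMSO cells, and 217 ± 6.36 FPKM in KO-labelled SR9009 and 345 ± 14.0 FPKM in control SR9009 cells. These sums are given as a description, without a test.

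**Figure D4:**
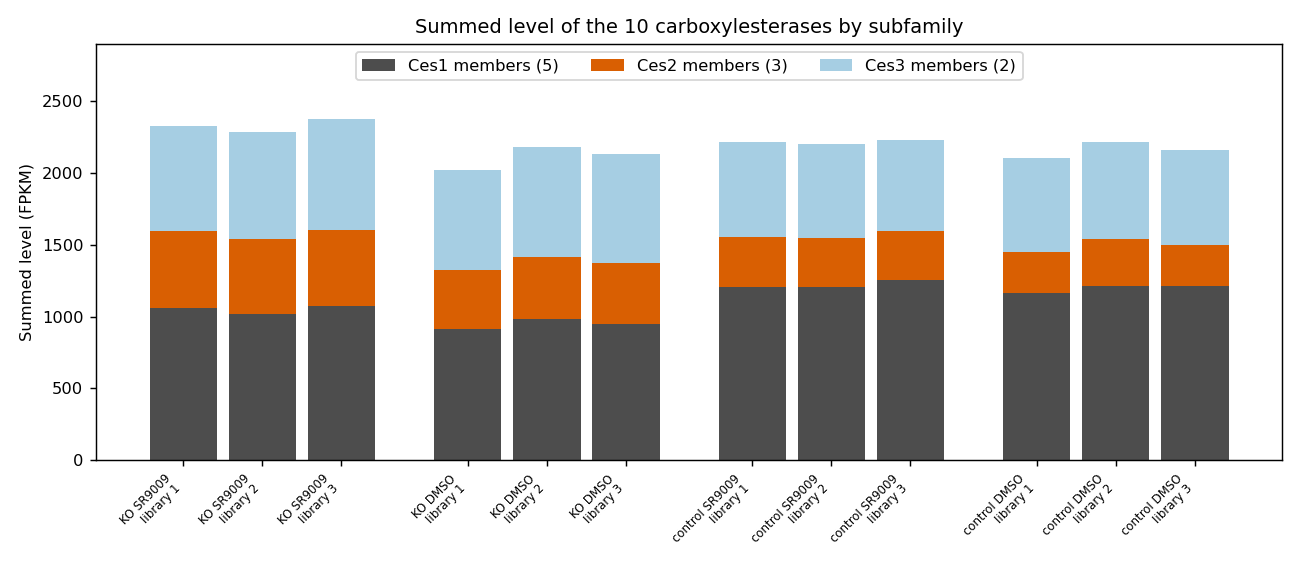
Summed FPKM (vertical axis, from 0) of the 5 Ces1, 3 Ces2 and 2 Ces3 members in each of the 12 libraries, stacked. The Ces1 part is shorter in the KO-labelled libraries, at 912 to 1077 FPKM, than in the control libraries, at 1168 to 1255 FPKM, and the Ces2 part is taller, at 416 to 533 FPKM against 285 to 350 FPKM.

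Across the 12 libraries, whose groups set most of the spread, the members formed a Ces1 side and a Ces2 and Ces3 side. As a description over log2(FPKM + 1) values (n = 12 libraries of shared groups), Pearson's r was 0.98 between Ces1d and Ces1f, 0.96 between Ces1d and Ces1e, and 0.99 between Ces2e and Ces3b. It was -0.93 between Ces1d and Ces3b, and -0.41 between Ces1c and Ces2a. All 25 pairs between Ces1 and the other members had an r below 0, and all 20 pairs on the same side had an r above 0. Within groups, after taking out the group means, these sides were not seen. There r was above 0 in 20 of the 25 pairs between the sides, as for Ces1e and Ces2e (0.79) and Ces1c and Ces3b (0.73), and in 16 of the 20 pairs on the same side, as for Ces3a and Ces3b (0.83) and Ces1d and Ces1f (0.72). The values within groups ran from -0.88 (Ces1g and Ces2c) to 0.84 (Ces1c and Ces1e).

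Genes outside the family with the most similar pattern over the 12 libraries were ranked by Pearson's r, for the member with the highest level and the member with the widest spread of group means. For Ces1c they were Upp2 (r = 0.963), Rpl9-ps7 (0.948), Nat8 (0.946), Taf9 (0.933) and Selenbp1 (0.933). For Ces1d they were Atf3 (r = 0.994), Isg15 (0.988), Fdps (0.988), Alpl (0.985) and Idi1 (0.984). Their averages in KO-labelled DMSO cells were 0.17 to 0.739 times those in control DMSO cells. Both members were themselves lower in KO-labelled DMSO cells, so the choice by r set this direction.

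Of 15 other ester and epoxide hydrolases of the liver, all tested, 1 was higher and 2 were lower in KO-labelled DMSO than in control DMSO cells. Of all genes tested 20% were called in that comparison, 11.7% as higher and 8.32% as lower, so this list did not stand out. Ephx1, the microsomal epoxide hydrolase, averaged 424 ± 11.9 FPKM in KO-labelled DMSO and 264 ± 7.04 FPKM in control DMSO cells (log2 change 0.68, adjusted p = 4.71e-07). The carboxymethylenebutenolidase homologue Cmbl, which activates the prodrug olmesartan medoxomil in humans, averaged 41.6 ± 2.38 and 58.9 ± 2.63 FPKM in the same groups (log2 change -0.49, adjusted p = 0.00029). The serum paraoxonase Pon1 had a log2 change of -0.16 (adjusted p = 0.0429). Under SR9009 2 were higher (Ephx1 and the arylacetamide deacetylase Aadac) and 1 lower (Cmbl) in KO-labelled cells, where 20.4% of all genes tested were called. SR9009 itself moved none of the 15 past the threshold in either genotype. It moved 9.87% of all genes tested in KO-labelled and 8.24% in control cells.

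Triglyceride lipases and lipid droplet proteins were listed because Ces1d is itself a triglyceride hydrolase. Of 20 such genes 18 were tested, and 7 were higher and 2 lower in KO-labelled DMSO than in control DMSO cells. Under SR9009 6 were higher and 2 lower. Of all genes tested 11.7% were higher and 8.32% lower in DMSO, and 12.9% and 7.43% under SR9009. Plin5, a coat protein of lipid droplets in oxidative tissue, averaged 17.6 ± 0.868 FPKM in KO-labelled DMSO and 6.63 ± 0.715 FPKM in control DMSO cells (log2 change 1.29, adjusted p = 2.43e-06). Plin2, the main coat protein of hepatocyte droplets, averaged 651 ± 16.5 FPKM in KO-labelled DMSO and 411 ± 33.6 FPKM in control DMSO cells (log2 change 0.66, adjusted p = 9.01e-06). The droplet enzyme Hsd17b13 gave a log2 change of 0.70 (adjusted p = 2.66e-05) and the hepatic lipase Lipc of 0.40 (adjusted p = 0.000208). SR9009 against DMSO called 3 higher and 4 lower in KO-labelled cells, and 1 higher and 2 lower in control cells. Of all genes tested it called 9.87% in KO-labelled and 8.24% in control cells. The droplet coat protein Plin4 fell in both, to 0.391 FPKM in KO-labelled SR9009 cells, against 2.35 FPKM in KO-labelled DMSO cells, and to 0.738 FPKM in control SR9009 cells, against 2.04 FPKM in control DMSO cells.

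Of 8 genes of VLDL assembly and export, 3 were higher and none lower in KO-labelled DMSO than in control DMSO cells. The shares over all genes tested were 11.7% and 8.32%. The 3 genes were P4hb, a subunit of the microsomal triglyceride transfer complex (log2 change 0.31, adjusted p = 0.000515), Tm6sf2 (0.27, adjusted p = 0.045) and the cargo receptor Surf4 (0.14, adjusted p = 0.0466). Under SR9009 5 of the 8 were higher and none lower, against 12.9% and 7.43% of all genes tested. P4hb fell with SR9009 in KO-labelled cells (log2 change -0.17, adjusted p = 0.0456) and in control cells (log2 change -0.19, adjusted p = 0.0306). The receptors that return proteins to the endoplasmic reticulum, Kdelr1, Kdelr2 and Kdelr3, and Gusb, the β-glucuronidase that Ces1e binds, did not pass the test in any comparison. Gusb averaged 13.8 ± 0.771 FPKM in KO-labelled DMSO and 14.6 ± 0.570 FPKM in control DMSO cells (log2 change -0.08, adjusted p = 0.432).

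Among 15 known or candidate regulators of these genes, 14 were tested and Nr0b2 was too low. In DMSO 2 were higher in KO-labelled cells, the clock genes Arntl and Dbp, and 2 were lower, the foreign-compound receptor CAR (Nr1i3) and the bile acid receptor FXR (Nr1h4). The shares over all genes tested were 11.7% higher and 8.32% lower. Nr1i3 averaged 6.49 ± 0.312 FPKM in KO-labelled DMSO and 9.83 ± 1.59 FPKM in control DMSO cells (log2 change -0.52, adjusted p = 0.00435). Nr1h4 averaged 9.44 ± 0.499 FPKM in KO-labelled DMSO and 13.8 ± 1.14 FPKM in control DMSO cells (log2 change -0.50, adjusted p = 0.00667). Dbp, a factor that binds D-boxes, averaged 4.42 ± 0.689 FPKM in KO-labelled DMSO and 1.69 ± 0.0694 FPKM in control DMSO cells (log2 change 1.00, adjusted p = 0.000558). The related Tef and Hlf did not pass (adjusted p = 0.382 and 0.459), nor did Nfe2l2, which encodes NRF2, at 60.4 ± 1.25 FPKM in KO-labelled DMSO and 57.5 ± 2.35 FPKM in control DMSO cells (adjusted p = 0.446).

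SR9009 lowered several of these regulators in both genotypes. In KO-labelled cells 1 was higher (Nr1d1, log2 change 0.30, adjusted p = 0.00472) and 3 were lower, and in control cells 1 was higher and 5 were lower. Of all genes tested SR9009 called 9.87% in KO-labelled and 8.24% in control cells. The pregnane X receptor (Nr1i2), a sensor of foreign compounds, averaged 30.2 ± 2.14 FPKM in control SR9009 and 21.1 ± 1.52 FPKM in control DMSO cells (log2 change 0.50, adjusted p = 0.00602). In KO-labelled cells it averaged 20.5 ± 1.61 FPKM under SR9009 and 18.0 ± 2.02 FPKM in DMSO (log2 change 0.18, adjusted p = 0.272). Hnf4a, the hepatocyte master regulator, averaged 149.7 ± 20.2 FPKM in KO-labelled SR9009 and 226 ± 8.42 FPKM in KO-labelled DMSO cells (log2 change -0.60, adjusted p = 0.00173), and 193 ± 21.0 FPKM in control SR9009 and 254 ± 6.08 FPKM in control DMSO cells (log2 change -0.40, adjusted p = 0.0225). Rxra, the partner of the pregnane X receptor, fell too, by 0.53 on the log2 scale in KO-labelled cells (adjusted p = 0.00148) and by 0.51 in control cells (adjusted p = 0.00229). Ppara fell by 1.31 in KO-labelled cells (adjusted p = 0.0109) and by 1.22 in control cells (adjusted p = 0.019). Tef and Hlf fell with SR9009 in control cells (adjusted p = 0.0454 and 0.0412). Under SR9009 3 regulators were higher in KO-labelled than in control cells (Arntl, Dbp and Nr1d1) and 4 were lower (Nr1h4, Nr1i2, Nr1i3 and Hnf4a). The shares over all genes tested were 12.9% higher and 7.43% lower. No gene of these lists passed the interaction test.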

How the data were processed

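Polyadenylated RNA of 12 hepatocyte libraries, 3 in each of 4 groups, was sequenced after ribosomal RNA depletion, per the labels' protocols. The submitters' processing notes name HISAT2, StringTie and the build mm9. Their versions, the annotation, the strand setting and the read totals are not stated there. As deposited by the authors, the table holds 1 value per gene and library, taken here as FPKM because the library totals differ and low values fall on steps that scale with gene length. Relative depth comes from those steps. Depth limits these high-level genes little, and no counting interval could be given.

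Values were transformed to log2(FPKM + 1), so log2 changes understate the change of low genes. Fold and percent changes are from ratios of mean FPKM. Genes reaching 1 FPKM in 3 or more libraries (11213 of 37991, all 10 members among them) were fitted by limma 3.58.1 under R 4.3.3, with robust, trended variances and a mean per group over all 12 libraries, and p-values were adjusted by Benjamini-Hochberg at 0.05 over all genes tested. There were 5 comparisons, KO-labelled against control in each treatment, SR9009 against DMSO in each genotype, and the interaction. The fit was tested on simulated data. No pair of libraries shared more than 0.0535% of equal values. All members were named in every comparison. From the other gene lists up to 4 genes with the smallest p among those called were named, plus any further carboxylesterase, regulator or endoplasmic reticulum retention gene. The members and lists were chosen with earlier results of these data known. Alternatives covered the pseudocount, the filter, 2 further scalings, the libraries fitted, a replicate block and leaving out libraries. Longest open reading frames stood in for annotated coding sequences, and mm9 sequence was not used here.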

Additional observations from a re-analysis of the deposited data

How the results depend on the processing

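Of 700 recomputed log2 changes of single members, 672 stayed on their side of the threshold, 27 lost a call and 1 gained one. No called change reversed its direction. The sign differed in 34 of the recomputed values, 0 of them called in either setting, and the largest of the reported changes concerned was that of Ces1c between the genotypes under SR9009, at -0.07, against 0.08 after quantile normalization. Quantile normalization and equal totals, tried for Ces1b, Ces2b, Ces2d-ps and Ces2g after seeing the data, changed no direction or call between the genotypes. The genotype calls changed least. In DMSO 9 members were called, and 9 in every set with 1 library left out, with 8 after quantile normalization. Under SR9009 7 were called, and 7 with any 1 library left out, with 8 when each library was rescaled to the same total. For SR9009 against DMSO in control cells the 2 calls became 0 in a fit to the libraries of this comparison only, 1 without the 2 shallowest libraries, and 0 to 2 with 1 library left out. For SR9009 against DMSO in KO-labelled cells the 5 calls became 3 with no filter on low values and 3 to 4 with 1 library left out. No member was called in the interaction under any alternative run. With 1 library left out, a group holds 2 libraries and the test is weaker by construction. Samples with the same replicate number did not deviate together (r of -0.11 to 0.09), so no pairing by number was seen, though a weak one might not show. Between samples with different numbers r ran from -0.11 to 0.18. With a replicate block the calls were 9, 2, 5, 0 and 7 in the order of genotype in DMSO, SR9009 in control, SR9009 in KO-labelled cells, interaction and genotype under SR9009. The cause of the other changes was not tested.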

Other observations

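The median log2 change over the 4 other carboxylesterases tested was 0.16 for SR9009 against DMSO in KO-labelled cells and 0.00 in control cells. Over all genes tested it was 0.00 and -0.02. Ces1b, the only one of the 4 called with SR9009 in either genotype, averaged 16.8 ± 0.706 FPKM in KO-labelled SR9009 and 12.4 ± 0.902 FPKM in KO-labelled DMSO cells (SD, n = 3 each; log2 change 0.41, limma adjusted p = 0.00736). Of all genes tested 9.87% were called with SR9009 in KO-labelled and 8.24% in control cells. The interaction called 0 of the 4, so a difference between the genotypes in their response is not shown.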
